A study of Mus musculus with 48 samples.

Results

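The endogenous transcripts of mouse liver were profiled here in the libraries that carried a synthetic spike-in RNA, with the spike-in itself left out. All 12 enrichment libraries were compared with all 12 input libraries of that experiment, 24 of the 48 libraries of the series, paired by mixture and replicate number. The count table held 52981 endogenous genes, of which 14849 had a zero count in at most 25% of the 24 libraries and were tested. Total RNA came from livers of C57BL/6 mice aged 18 months. A polyadenylated spike-in RNA was mixed into it that was 0%, 1%, 5% or 10% NAD-capped, with the rest m7G-capped, and each mixture was sequenced as 3 input and 3 enrichment libraries. All 24 libraries shared the treatment with ADP-ribosyl cyclase (ADPRC) and the biotin reagent HEEB, which exchanges the nicotinamide of NAD for biotin. An enrichment library held the RNA that bound streptavidin and was released by NudC, an enzyme that cleaves the diphosphate of an NAD-derived cap, and an input library held the same biotinylated RNA before capture. Poly(A)+ RNA was sequenced in both, so a transcript without a poly(A) tail was measured only as far as it came through that selection.

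NAD is an adenine nucleotide that RNA polymerases can place as the first nucleotide of a transcript in place of ATP. The resulting NAD cap differs from the m7G cap of most mRNAs, and enzymes of the DXO and Nudix families remove it. In mammals NAD caps have been described on nuclear mRNAs, on small nuclear and nucleolar RNAs and on transcripts of the mitochondrial genome. Liver is a tissue of high NAD turnover, in which NAD serves oxidation reactions and is made from tryptophan and from nicotinamide.

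Depth was 3692146 to 10270010 endogenous counts per library, so that 3 counts, taken as the floor, stood for 0.277 to 1.06 cpm (counts scaled to a common library size). The 12 inputs did not look like 12 separate RNAs. Among genes with at least 40 counts, the chi-square of counts over counting noise was 1.42 to 1.76 between inputs with the same number in the 0% and 5%, or in the 1% and 10%, mixtures. It was 2.35 to 3.45 between different numbers of a mixture, and 3.42 to 6.25 between the 0% or 5% and the 1% or 10% mixtures. Each of the 12 inputs was nearest to its same-numbered partner. The mixtures thus fell into 0% with 5% and 1% with 10%, which are called sets below and are not groups of the labels, and the labels do not say which mixtures share livers. P-values therefore measure the spread between libraries, which may be partly technical.

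The pairs were also unequal in how far enrichment moved from input. In 9 pairs the log2 ratio of enrichment to input, over all genes tested, had a SD of 0.96 to 1.28. In 3 pairs, 0% replicate 1, 1% replicate 3 and 10% replicate 2, the SD was 0.61, 0.59 and 0.74. The share of genes at least 2-fold higher was 5.58%, 4.07% and 8.65% in these 3 pairs and 13.5% to 17.8% in the other 9. Mitochondrial genes took 4.14% to 5.43% of the counts in every input, and in the enrichment libraries of the 3 pairs 2.86%, 3.99% and 2.07% against 0.54% to 1.49% in the others. The correlation of a pair's log2 ratios with the mean of the other pairs, across genes, was 0.62, 0.33 and 0.66 in these 3 and 0.78 to 0.85 in the others. In 1% replicate 3 the rRNA gene CT010467.1 alone held 517873 counts, 9.39% of the enrichment library (95% Wilson interval 9.37% to 9.42%, counting error only).

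**Figure D1:**
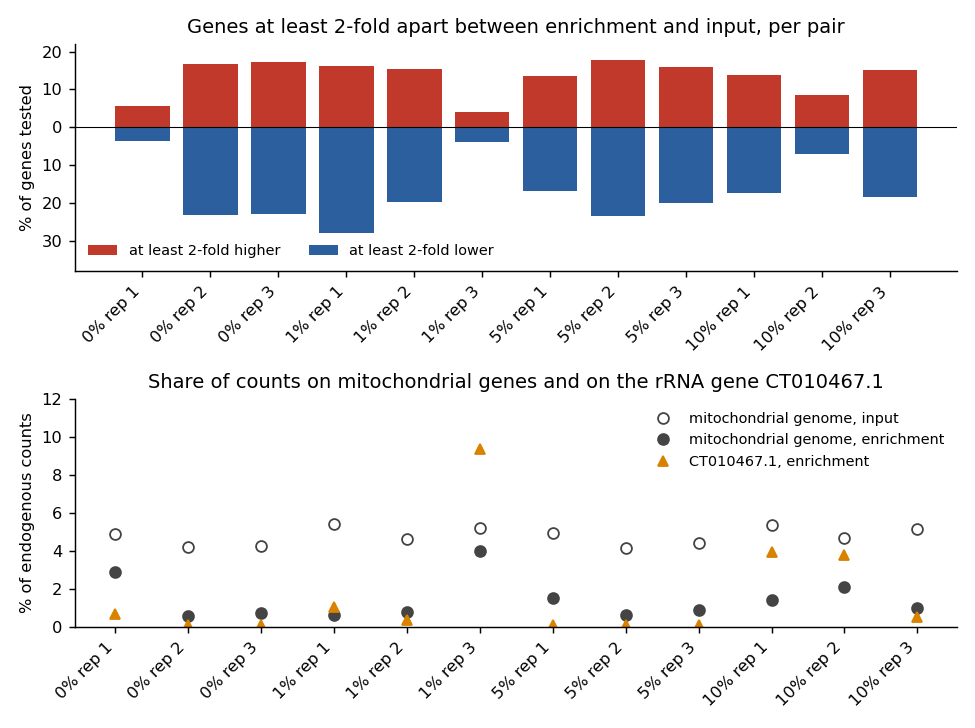
Upper panel: percentage of the 14849 genes tested that were at least 2-fold higher (upward bars) or lower (downward bars) in enrichment than in input, for each of the 12 pairs. Lower panel: percentage of endogenous counts on genes of the mitochondrial genome in input (open circles) and enrichment (filled circles), and on CT010467.1 in enrichment (triangles). The pairs 0% replicate 1, 1% replicate 3 and 10% replicate 2 have the shortest bars and the highest mitochondrial shares after enrichment.

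Over all mixtures, 1687 genes (11.4% of those tested) were called higher in enrichment and 1992 (13.4%) lower, a call being a log2 fold change of at least 1 in size with an adjusted p under 0.05. The first included 30 of 106 nuclear genes of the respiratory chain, 14 of 48 proteasome genes, 22 of 67 cytochrome P450 genes and 10 of 22 glutathione S-transferase genes. The second included 20 of 32 collagen and laminin genes and 15 of 25 genes of the mitochondrial genome. The log2 fold changes had a median of -0.05 over all genes, with the 10th and 90th percentiles at -1.13 and 1.08. The median change of the called genes was 1.33 and -1.26, and 131 rose and 46 fell at least 4-fold. Without scaling for composition, by library size alone, the calls were 564 higher and 4235 lower and the median over all genes was -0.50, so directions here are relative to the bulk of the transcripts. Just past the limit stood Fas at 1.0002 and Pan3 at -1.00004, and just short of it Shmt1 at 0.9995 and Slain2 at -0.999.

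Most called genes moved the same way in nearly every pair, though the size varied. Of the genes called higher, 1197 (71.0%) were above their input in 12 of 12 pairs and 1431 (84.8%) in 11 or 12. Of the genes called lower, 1150 (57.7%) were below it in 12 of 12 pairs and 1698 (85.2%) in 11 or 12. Among all 14849 genes tested, 2550 were above and 2535 below input in 12 of 12 pairs. The calls used the same 12 pairs, so agreement in sign is partly built into them. Counts of 12 of 12 pairs given for lists below stand against those of all genes tested. A 2-fold change in each of the 12 pairs was rare, with 26 genes higher and 3 lower, and 800 and 731 reached it in at least 9 pairs. Enrichment and input libraries did not overlap at all for 769 of the genes called higher and 437 of those called lower, where 7.20% and 5.19% of all genes tested were separated in these directions. The SD of a gene's log2 ratio over the 12 pairs had a median of 0.50 among genes called higher, 0.79 among those called lower and 0.44 among those not called. Without the 3 pairs of smallest spread, a choice made after seeing the data, 2050 genes were called higher and 2919 lower, and 1612 of the 1687 and 1892 of the 1992 genes were among them.

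Among genes with at least 50 counts on average and 1 direction in all 12 pairs, the largest rises were those of 8 protein-coding genes, 2 processed pseudogenes, an antisense RNA and a small nuclear RNA. Sertad1 (chr7:27486910-27490316, plus strand), a regulator of cyclin-dependent kinase and transcription, had 5.34 to 8.13 cpm (median 6.45) in the input and 11.1 to 74.7 cpm (median 51.6) in the enrichment libraries. Its log2 fold change was 2.89 ± 0.20 (SE, adjusted p = 1.6e-10), and no enrichment library overlapped an input library. Taf13, a subunit of the general transcription factor TFIID, had 8.44 to 16.3 cpm (median 11.9) in the input and 32.4 to 107 cpm (median 72.1) in the enrichment libraries, a log2 fold change of 2.56 ± 0.17 (SE, adjusted p = 8.4e-11). These were 2 genes of low input level with clear separation. Akr1c13 (chr13:4191150-4205596, plus strand), an aldo-keto reductase that uses NAD(P)H, had 76.3 to 105 cpm (median 93.1) in the input and 209.9 to 686 cpm (median 593) in the enrichment libraries, a change of 2.54 ± 0.15 (SE, adjusted p = 2.6e-11). Ubb, a polyubiquitin gene, had 220.2 to 322 cpm (median 279) in the input and 539 to 2005 cpm (median 1624) in the enrichment libraries, a change of 2.47 ± 0.16 (SE, adjusted p = 9.6e-11). Both were above their inputs in every pair, with the smallest log2 ratio, 1.23 and 0.92, in 1% replicate 3. Plac8, a small cysteine-rich protein, Stmn1, which destabilizes microtubules, and the uncharacterized 2810006K23Rik changed by 2.66 ± 0.13, 2.47 ± 0.19 and 2.53 ± 0.17. The pseudogenes Gm11966 and Gm6977 changed by 3.16 ± 0.22 and 2.79 ± 0.17, and reads of a processed pseudogene may come from its parent gene.

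Gm10800 had the largest value among the genes named for size, 4.79 ± 0.60, on 0 to 35 counts in the input and 18 to 640 in the enrichment libraries. For the antisense RNA Gm15564, which lies opposite Kpna1 and Parp9, and the small nuclear RNA Gm22513, the log2 ratios ran from 0.64 to 8.28 and from 0.80 to 6.91 over the 12 pairs. These 2 genes kept their direction but not their size, and the Gm22513 input held 3 to 10 counts per library. Both are among the loci left out together with the rRNA gene CT010467.1 in a fit described below. In the aged livers described below, Gm15564 and Gm22513 had log2 fold changes of -1.10 and -1.94. The featureCounts options the study gives name no strand setting, so reads of Gm15564 and of the genes opposite it could not be told apart.

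The deepest falls among such genes were those of long transcripts. Pkd1 (chr17:24549834-24596508, plus strand), which encodes the large membrane receptor polycystin-1, had 8.98 to 16.2 cpm (median 12.1) in the input and 1.23 to 7.60 cpm (median 2.14) in the enrichment libraries, a log2 fold change of -1.99 ± 0.25 (SE, adjusted p = 3.4e-07). Htt (chr5:34761740-34912534, plus strand), the huntingtin gene, had 13.1 to 21 cpm (median 16.6) in the input and 0.998 to 12.3 cpm (median 3.59) in the enrichment libraries, a change of -1.84 ± 0.27 (SE, adjusted p = 3.1e-06). In neither gene did an enrichment library reach the lowest input. Gcn1l1, which activates the kinase GCN2 on stalled ribosomes, had 26.6 to 39.1 cpm (median 29.9) in the input and 2.87 to 22.3 cpm (median 5.96) in the enrichment libraries and a change of -1.90 ± 0.25 (SE, adjusted p = 9.4e-07), again without overlap. Cpd (carboxypeptidase D), Dgkd (diacylglycerol kinase delta) and Ankrd52 (a regulatory subunit of phosphatase 6) changed by -1.94 ± 0.35, -1.85 ± 0.23 and -1.83 ± 0.27 and were also separated. Reln (reelin), Herc1 (a giant HECT-domain protein), Lyst (a regulator of lysosomal trafficking), C1galt1 (O-glycan core synthesis) and Alg10b (N-glycan precursor synthesis) changed by -1.86 ± 0.35, -1.85 ± 0.32, -1.81 ± 0.29, -1.81 ± 0.26 and -2.0002 ± 0.29, and 1 enrichment library of each lay within the input range. The processed pseudogene Gm5182 changed by -2.02 ± 0.31. The merged exons of these 12 genes were 6.09 to 27.5 kb long, against 0.087 to 3.16 kb for the 12 genes with the largest rises.

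**Figure D2:**
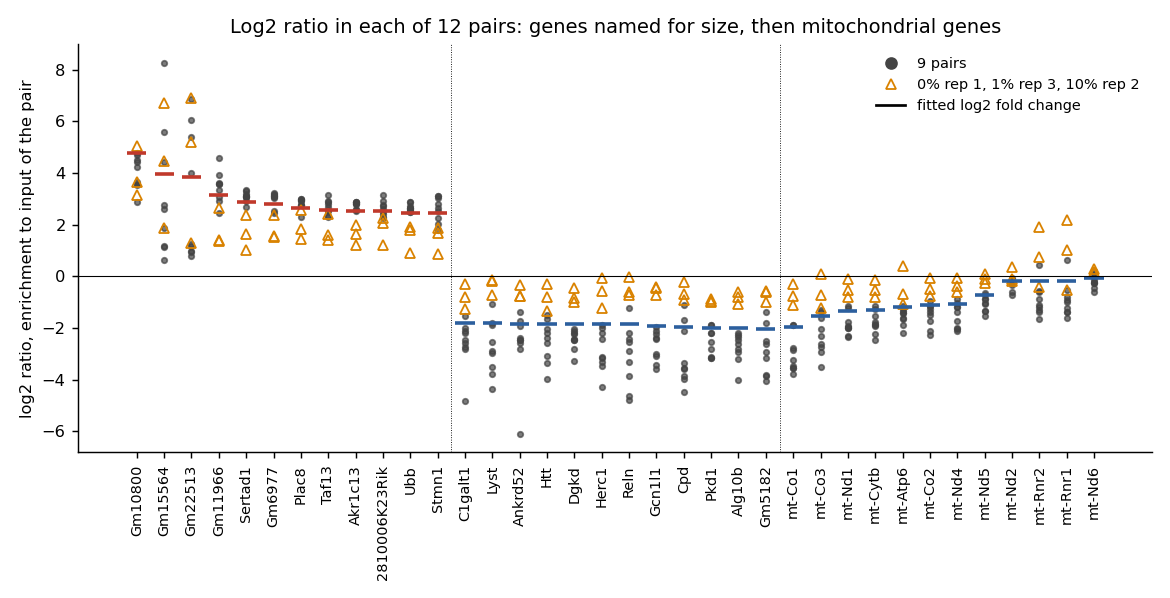
Log2 ratio of enrichment to input (y axis, cpm with a prior count of 2) in each of the 12 pairs for the 12 genes of largest rise, the 12 of deepest fall and genes of the mitochondrial genome. Grey points are 9 pairs, open triangles are 0% replicate 1, 1% replicate 3 and 10% replicate 2, and lines are fitted log2 fold changes. For Sertad1 to Stmn1, and for the genes that fell, the triangles lie nearer to 0 than most grey points, while Gm15564 and Gm22513 span 0.64 to 8.28 and 0.80 to 6.91.

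Exon length ran with the direction of change across the whole table. With the genes in 10 equal groups by length, 26.9% of the shortest group (median 597 bp of merged exons) were called higher and 4.51% lower, and of the longest group (median 11805 bp) 1.62% and 42.2%. The median log2 fold change declined from 0.54 in the shortest and 0.60 in the next group to 0.02 in group 5 (median 3521 bp) and -0.88 in the last. Genes called higher had a median exon length of 1932 bp, genes called lower 7438 bp and genes not called 3756.5 bp. Across the 14849 genes, which are not independent of each other, Spearman's rho between length and log2 fold change was -0.54. Length also differed between the gene groups described below, and its part in their direction was not tested. In 10 equal groups by input level, counted per gene, 19.3% of the lowest, 7.74% of group 5 and 20.1% of the highest were called higher. The shares called lower were 3.50%, 17.8% and 6.06%. The lowest group had 0.0647 to 0.539 cpm in the input, near the floor of 3 counts. The filter on zero counts ran over both library types, so a gene of low input could pass it through its enrichment counts. The 19.3% of that group is therefore not read as a result about level. With the level counted per kilobase the raised share of the lowest group was gone, at 8.96% higher and 13.1% lower, while the highest had 25.1% and 3.03%. The median SD over pairs fell from 0.92 in the lowest to 0.28 in the highest group by level, so the low genes carry the less certain values.

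**Figure D3:**
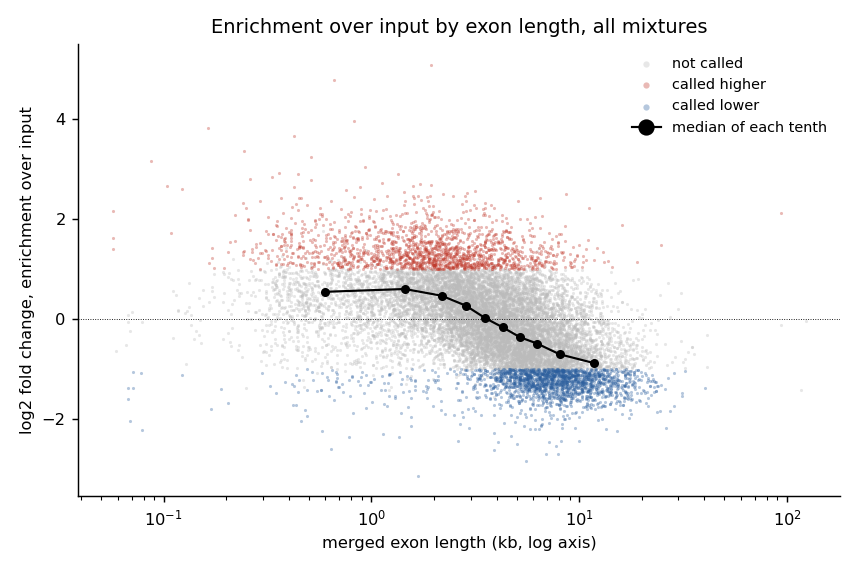
Log2 fold change of enrichment over input (y axis) against merged exon length (x axis, kb, log scale) for the 14849 genes tested, coloured by call, with the median of each of 10 equal groups by length in black. The medians decline from 0.54 in the shortest group to -0.88 in the longest.

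By annotated type, 9.91% of the 12700 protein-coding genes tested were called higher and 14.6% lower. Short noncoding and pseudogene classes leaned the other way, with 21.4% higher and 5.64% lower among 939 processed pseudogenes, 21.7% and 5.26% among 304 lincRNAs, and 18.6% and 6.44% among 295 antisense RNAs. Their median exon lengths were 599, 1642 and 1466 bp, against 4378 bp for protein-coding genes. Here too a gene of low input could pass the filter on zero counts through its enrichment counts. These shares are therefore not read as a trait of the types, and the part of length or level in them was not tested.

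NAD can start a transcript only where an adenosine is encoded. The base at the annotated start was therefore tabulated for the 7946 protein-coding genes with a single RefSeq promoter entry (GRCm38.p6). It was A in 38.1% of the 833 such genes called higher, 27.9% of the 5954 not called and 25.3% of the 1159 called lower. With the genes in 5 equal groups by exon length, A was at the start of 35% to 41.6% of genes called higher and of 26.7% to 30.02% of those not called. For genes called lower it was 18.2% to 31.1%, and in the 2 groups of the shortest genes, with 14 and 45 called lower, A was more frequent among them (28.6% and 31.1%) than among genes not called (28.04% and 26.7%). Seen from the start base, 13.9% of genes starting with A were called higher, against 9.11% with G, 8.28% with C and 10.4% with T. An annotated start is a model and was not measured in these libraries. The gene positions given elsewhere in the text are from GENCODE and the starts here from RefSeq. The 2 give different first bases for Sertad1, Akr1c13, Pkd1 and Cyp3a11 and the same one for Htt, so the start base can depend on the annotation. The starts of some genes described here are shown, 24 bases before and 6 bases from the annotated start on the strand of the gene, with the start base in capitals, to let the first base be compared between genes that rose and genes that fell.
Sertad1, chr7:27486929-27486958, plus strand: tgtctggagtcgtgcgccggagtcAgaact
Akr1c13, chr13:4191163-4191192, plus strand: tacccacttccgcttcagggcaacAgaata
Cyp2c70, chr19:40187281-40187310, minus strand: agtcccttggaacataagctttccAgtgca
Taf13, chr3:108571675-108571704, plus strand: tcgccagccgccggtgggcgggttCagaag
Cyp3a11, chr5:145879849-145879878, minus strand: gtcctcagtgcagcagagtgggcaGaggga
Med17, chr9:15279901-15279930, minus strand: cggaggattgtggggcagcagtggGtagtt
Ufc1, chr1:171294997-171295026, minus strand: gcttctgagcatgaacggaagtcgTtctct
Fgb, chr3:83049858-83049887, minus strand: ctaaagggaggtaaccattcctgaAgtcat
Pkd1, chr17:24549926-24549955, plus strand: gagcctgtgaaggccttctcttcaTccagt
Htt, chr5:34761716-34761745, plus strand: tccgccggcatgacgtcacgggacGcactc
Herc1, chr9:66350426-66350455, plus strand: ccgcgagactcgcctgccgctgccGctgcc
Reln, chr5:22344700-22344729, minus strand: aggtgcggagggggcgggcactttCccaag
Among the genes called higher, Sertad1, Akr1c13 and Cyp2c70 had A at the annotated start, whereas Taf13, Cyp3a11, Med17 and Ufc1 had C, G, G and T. Fgb, which was not called, had A. None of the 4 long genes that fell and are shown had A.

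Nuclear genes for the energy machinery of mitochondria were more often called higher than lower. The shares of each list given here and below stand against 11.4% higher and 13.4% lower among all genes tested. Of the nuclear-encoded subunits of the respiratory chain and ATP synthase, 30 of 106 (28.3%) were called higher and 0 lower (6 at an adjusted p under 0.05 with any fall), with a median log2 fold change of 0.63, and 57 were above input in 12 of 12 pairs. Among members with a mean of at least 50 counts, the limit for the extremes named in each list, the largest rises were those of Ndufb2, a complex I subunit, and Atp5j, a subunit of ATP synthase. Ndufb2 had 5.78 to 9.57 cpm (median 7.10) in the input and 13.4 to 45.8 cpm (median 28.1) in the enrichment libraries, a log2 fold change of 2.01 ± 0.15 (SE, adjusted p = 2.7e-10). Atp5j had 164 to 225 cpm (median 189.8) in the input and 350.3 to 1028 cpm (median 773) in the enrichment libraries, a change of 1.99 ± 0.13 (SE, adjusted p = 8.5e-11). Neither gene had an enrichment library within its input range, though both overlap a gene on the opposite strand. At the other end, Cox7c (complex IV) and Sdha (complex II) had log2 fold changes of -0.96 ± 0.19 and -0.52 ± 0.08, short of the limit. Of the mitochondrial ribosomal proteins, 19 of 77 (24.7%) were called higher and 1 (1.30%) lower, with a median log2 fold change of 0.54. The extremes were Mrpl42 at 2.07 ± 0.12, Mrps18c at 1.75 ± 0.12 and, called lower, Mrpl9 at -1.0046 ± 0.13. By library size alone 10 higher and 1 lower respiratory chain genes and 2 higher and 1 lower mitochondrial ribosomal proteins were called.

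Few genes for cytosolic ribosomal proteins, the subunits of the ribosome that makes nuclear-encoded proteins, were called. Of their genes, 2 of 80 (2.50%) were called higher and 0 lower (10 at an adjusted p under 0.05 with any fall), with a median log2 fold change of 0.24. Rps27l, a paralogue of Rps27, had 134 to 206 cpm (median 179) in the input and 324 to 749 cpm (median 541) in the enrichment libraries, a log2 fold change of 1.63 ± 0.10 (SE, adjusted p = 2.3e-11). It stood outside its input range in all 12 enrichment libraries. The other gene called was Rps29 at 1.08, and Rps25 reached 0.98 ± 0.09 without being called. Rpl41 had -0.57 ± 0.17. Of the 80 genes, 18 were above and 5 below input in 12 of 12 pairs. The group has many processed pseudogenes in the genome, with which its members may share reads.

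The proteasome genes and the Sm and LSm genes leaned the way of the nuclear genes for mitochondria. Of the proteasome genes, 14 of 48 (29.2%) were called higher and 1 (2.08%) lower, with a median log2 fold change of 0.71, led by the core subunits Psmb2 at 1.75 ± 0.13 and Psma1 at 1.68 ± 0.11. The 1 gene called lower was Psme4, which encodes the large activator PA200, at -1.23 ± 0.16. Of the Sm and LSm proteins, which bind small nuclear RNAs and decaying mRNAs, 10 of 26 (38.5%) were called higher and 0 lower (3 at an adjusted p under 0.05 with any fall), with a median log2 fold change of 0.80. Snrpd3 had 33.3 to 51.3 cpm (median 41.4) in the input and 57.5 to 129 cpm (median 109.5) in the enrichment libraries and a log2 fold change of 1.37 ± 0.10 (SE, adjusted p = 4.1e-10), and Lsm4 changed by 1.24 ± 0.12. By library size alone the calls were 3 higher and 1 lower for the proteasome and 0 higher and 2 lower for the Sm and LSm genes. Of the translation factors, 8 of 64 (12.5%) were called higher and 4 (6.25%) lower, with a median log2 fold change of 0.17, and the share called higher was near that of all genes. The helicase Eif4a1 and the start-codon factor Eif1b changed by 1.49 ± 0.12 and 1.46 ± 0.13. Eef2, which moves the ribosome along the mRNA, had 1596 to 1856 cpm (median 1724) in the input and 451 to 1346 cpm (median 593) in the enrichment libraries and a change of -1.29 ± 0.17 (SE, adjusted p = 6.3e-07), and the scaffolds Eif4g1 and Eif4g2 and the initiation factor subunit Eif3a changed by -1.29, -1.04 and -1.13. Replication-dependent histone genes, whose mRNAs mostly end in a stem-loop and not in poly(A), were seldom detected, with 16 of 69 tested. Of the 16, 10 were called higher and 0 lower, with a median of 1.37. A histone gene of low input could pass the filter on zero counts through its enrichment counts. The share called higher is therefore not read as a trait of histone genes. In the aged livers described below, 5 of 18 were called higher and 0 lower, with a median of 0.43. Hist1h1c, with 79.7 to 106 cpm (median 93.9) in the input and 109.8 to 327 cpm (median 198) in the enrichment libraries, was the leading member of sufficient count at 1.15 ± 0.13, and histone copies share sequence. Of the 15 snoRNA host genes tested, 1 was called higher, Snhg10 at 1.12, and 1 lower, Snhg14 at -2.19, with a median of 0.29. Gas5, a well-known member, had 0.81 ± 0.11.

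Enzymes of drug and xenobiotic metabolism, a main task of hepatocytes, held several large rises. Of the cytochrome P450 genes, 22 of 67 (32.8%) were called higher and 0 lower (5 at an adjusted p under 0.05 with any fall), with a median log2 fold change of 0.50. Cyp3a11 (chr5:145854426-145879964, minus strand), a major drug-oxidizing P450 of mouse liver, had 1253 to 1883 cpm (median 1472) in the input and 3589.6 to 11960.1 cpm (median 8174) in the enrichment libraries, a log2 fold change of 2.36 ± 0.17 (SE, adjusted p = 1.9e-10). Cyp2c70, which hydroxylates bile acids to muricholic acids, had 304 to 546 cpm (median 379) in the input and 755 to 2727 cpm (median 1978) in the enrichment libraries, a change of 2.25 ± 0.20 (SE, adjusted p = 2.9e-09). In both the libraries of the 2 kinds were apart. Cyp7a1, the rate-limiting enzyme of bile acid synthesis, had 28 to 54.7 cpm (median 43.5) in the input and 11.7 to 44.5 cpm (median 21.3) in the enrichment libraries, a log2 fold change of -0.85 ± 0.19 that was negative in 12 of 12 pairs but short of the limit. Of the glutathione S-transferase genes, 10 of 22 (45.5%) were called higher and 0 lower (0 at an adjusted p under 0.05 with any fall), with a median log2 fold change of 0.96. All 22 had a positive log2 fold change, except that Gstp1 and Gstp3 turned negative by library size alone. Mgst1, the microsomal transferase, had 3275 to 5246 cpm (median 4268) in the input and 8144 to 25110.5 cpm (median 18026) in the enrichment libraries, a change of 2.05 ± 0.15 (SE, adjusted p = 1.9e-10). Gstm3 had 175 to 262 cpm (median 219) in the input and 413 to 1301 cpm (median 948) in the enrichment libraries, a change of 2.08 ± 0.16 (SE, adjusted p = 4.2e-10). The lowest members were Gstp3 at 0.11 ± 0.09 and Gstp1 at 0.25 ± 0.08. Of the UDP-glucuronosyltransferases, 3 of 17 (17.6%) were called higher and 1 (5.88%) lower, with a median log2 fold change of 0.51, with Ugt2a3 at 1.49 ± 0.13 and Ugt3a2 at 1.28 ± 0.11, besides Ugt2b37 at 1.98 and, lower, Ugt1a7c at -1.20. By library size alone the calls were 11 higher and 2 lower for cytochrome P450, 7 higher and 0 lower for glutathione S-transferases and 2 higher and 1 lower for UDP-glucuronosyltransferases. Members of these families are similar in sequence and may share reads.

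Amino acid metabolism split sharply between genes. Of the genes of the urea cycle and of amino acid breakdown, 19 of 51 (37.3%) were called higher and 3 (5.88%) lower, with a median log2 fold change of 0.77. Cdo1, which oxidizes cysteine, had 1661 to 2100.4 cpm (median 1939.9) in the input and 2864 to 12257 cpm (median 8712) in the enrichment libraries, a log2 fold change of 2.14 ± 0.17 (SE, adjusted p = 6.1e-10). Bhmt, which remethylates homocysteine from betaine, had 1343 to 2044 cpm (median 1499) in the input and 2528 to 9383 cpm (median 5559) in the enrichment libraries, a change of 1.77 ± 0.16 (SE, adjusted p = 5.5e-09). Both lay above every input. In the same list Glud1, glutamate dehydrogenase, had 796 to 962 cpm (median 892) in the input and 124 to 671 cpm (median 231) in the enrichment libraries, a change of -1.56 ± 0.22 (SE, adjusted p = 2.0e-06). Cps1, the first enzyme of the urea cycle, had 1311 to 1685 cpm (median 1553) in the input and 255 to 1238 cpm (median 529.7) in the enrichment libraries, a change of -1.34 ± 0.18 (SE, adjusted p = 1.0e-06). These 2 transcripts lay below every input, and Ahcy, which splits S-adenosylhomocysteine, was called lower at -1.10. By library size alone 7 higher and 8 lower were called.

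The secreted plasma proteins of hepatocytes showed the same breadth. Of the list, 16 of 70 (22.9%) were called higher and 3 (4.29%) lower, with a median log2 fold change of 0.30. Ambp, the precursor of alpha-1-microglobulin and bikunin, had 2731 to 3226 cpm (median 2865) in the input and 4308 to 18298 cpm (median 13944) in the enrichment libraries, a log2 fold change of 2.10 ± 0.17 (SE, adjusted p = 8.1e-10), and the acute-phase protein gene Orm2 changed by 2.10 ± 0.22. C3, the central complement component, had 2706 to 4579.8 cpm (median 3389) in the input and 566 to 2801 cpm (median 1122) in the enrichment libraries, a change of -1.40 ± 0.19 (SE, adjusted p = 1.6e-06). Apob, the structural protein of very-low-density lipoprotein and a long mRNA, had 716 to 1326 cpm (median 1044) in the input and 152 to 914 cpm (median 409) in the enrichment libraries, a change of -1.23 ± 0.22 (SE, adjusted p = 3.8e-05). F5, coagulation factor V, was the third gene called lower, at -1.16. Ambp was separated from its inputs, whereas the enrichment libraries of C3 and Apob reached into the input range. Of the major urinary protein genes, close copies of each other, 1 of 17 was called higher, Mup20 at 1.33 ± 0.12, and 0 lower.

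Further metabolic lists had no gene called lower. Of fatty acid oxidation genes, 8 of 35 (22.9%) were called higher and 0 lower (9 at an adjusted p under 0.05 with any fall), with a median log2 fold change of 0.33. Etfb, which passes electrons from acyl-CoA dehydrogenases, and the peroxisomal reductase Decr2 changed by 1.73 ± 0.15 and 1.58 ± 0.13, while Cpt1a, which gates fatty acid entry into mitochondria, had -0.82 ± 0.11. Of glycolysis and gluconeogenesis genes, 5 of 22 (22.7%) were called higher and 0 lower (6 at an adjusted p under 0.05 with any fall), with a median log2 fold change of 0.46, with Eno1 (enolase) at 1.61 ± 0.14 and Mdh1 (cytosolic malate dehydrogenase) at 1.46 ± 0.13, and with Ldhb and Tpi1 at 1.32 and 1.29. Pklr and Pcx, the liver pyruvate kinase and pyruvate carboxylase, had -0.73 ± 0.11 and -0.61 ± 0.09. Of cholesterol and bile acid synthesis genes, 4 of 27 (14.8%) were called higher and 0 lower (7 at an adjusted p under 0.05 with any fall), with a median log2 fold change of 0.38, and the share called higher was near that of all genes. Pmvk (phosphomevalonate kinase) and Baat, which conjugates bile acids, changed by 1.55 ± 0.14 and 1.52 ± 0.13, and Tm7sf2 and Ebp by 1.43 and 1.29. Without the 3 pairs of smallest spread, 3 cholesterol and bile acid genes and 1 fatty acid oxidation gene were called lower. By library size alone the calls were 2 higher and 4 lower, 1 higher and 3 lower and 2 higher and 6 lower in these 3 lists, so the absence of falls depends on the scaling.

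Genes of NAD itself were measured as 2 lists. Of the NAD metabolism list, 5 of 34 (14.7%) were called higher and 0 lower (6 at an adjusted p under 0.05 with any fall), with a median log2 fold change of 0.46. Tdo2, the first enzyme of the route from tryptophan to NAD, had 580.4 to 866 cpm (median 785) in the input and 1317 to 3060.3 cpm (median 2156) in the enrichment libraries, a log2 fold change of 1.49 ± 0.12 (SE, adjusted p = 6.0e-10). Sirt7, a nuclear NAD-dependent deacylase, changed by 1.29 ± 0.15, and the mitochondrial NAD kinase Nadk2 had -0.94 ± 0.13. Of the 5 genes listed as NAD cap hydrolases, not all of them established as such, Nudt13 was called higher at 1.26 ± 0.14. It had 12 to 16.1 cpm (median 13.6) in the input and 13.6 to 39.9 cpm (median 37.3) in the enrichment libraries. Dxo had 0.57 ± 0.13, Nudt16 0.13 ± 0.12 and Nudt12 -0.12 ± 0.08. Xrn1, a 5′ exonuclease, was called lower at -1.40. Kynu, Nnmt and Sirt3, called higher in the NAD metabolism list at 1.09, 1.19 and 1.18, and Xrn1 are named here after their values were seen, as are all further genes given below or above to complete a count of 5 or fewer.

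The study lists primers for single-gene assays (qRT-PCR) of 10 genes. By its text, Akr1c13, Atp5k, Fam213b, Med17, Cyp2c70, Cyp3a11 and Ufc1 were chosen as found by its sequencing and Serpina1e and Fgb as not found by it, so their directions are not independent evidence. Of the 10, 7 were called higher here and 0 lower, with a median of 1.92. Besides Akr1c13, Cyp3a11 and Cyp2c70, the genes called were Fam213b (Prxl2b, a prostamide and prostaglandin F synthase) at 2.41 ± 0.17, Med17 (a Mediator subunit) at 1.96 ± 0.16, Ufc1 (the conjugating enzyme for UFM1) at 1.88 ± 0.14 and Gstm1 (a cytosolic glutathione S-transferase) at 1.51 ± 0.12. All 7 were above every input library in the 12 enrichment libraries and above input in 12 of 12 pairs. Atp5k, an ATP synthase subunit, had 0.42 ± 0.10, and Fgb, the fibrinogen beta chain, 0.26 ± 0.09, with 11 and 8 of 12 pairs above input. Serpina1e, an alpha-1-antitrypsin copy, had 86.2 to 316 cpm (median 95.3) in the input and 47.9 to 275 cpm (median 86.2) in the enrichment libraries and a log2 fold change of -0.50 ± 0.32 (SE, adjusted p = 0.18), although it was below input in 12 of 12 pairs. The study's assays of these genes used livers of younger mice. In its assay with boronic acid beads, which does not use ADPRC, Atp5k was reported as enriched and Fgb and Serpina1e as not enriched.

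Genes for extracellular matrix lay on the other side. Of the collagen and laminin genes, 0 of 32 were called higher and 20 (62.5%) lower (and 0 at an adjusted p under 0.05 with any rise), with a median log2 fold change of -1.10, and 12 were below input in 12 of 12 pairs. Col14a1 had 39.97 to 68.8 cpm (median 50.6) in the input and 3.55 to 49.6 cpm (median 12.5) in the enrichment libraries, a log2 fold change of -1.61 ± 0.30 (SE, adjusted p = 5.8e-05), and the laminin gamma chain gene Lamc1 changed by -1.58 ± 0.25. Col15a1 and Lamb3, the least lowered members of at least 50 counts, had -0.65 ± 0.11 and -0.32 ± 0.15. Of the zinc finger (Zfp) genes, 7 of 276 (2.54%) were called higher and 51 (18.5%) lower, with a median log2 fold change of -0.42, with Zfp687 at -1.38 ± 0.15, Zfp652 at -1.37 ± 0.18 and, called higher, Zfp954 at 1.40 ± 0.18 and Zfp560 at 1.30 ± 0.16. Of the solute carriers, 16 of 224 (7.14%) were called higher and 35 (15.6%) lower, with a median log2 fold change of -0.16, and the share called lower was near that of all genes. Slc25a5, an adenine nucleotide carrier of mitochondria, had 433 to 543 cpm (median 485) in the input and 881 to 2575 cpm (median 1639) in the enrichment libraries, a change of 1.84 ± 0.14 (SE, adjusted p = 2.7e-10). Slc38a4, an amino acid transporter, changed by 1.70 ± 0.13. Slc23a2 (vitamin C transport) and Slc4a4 (bicarbonate cotransport) changed by -1.72 ± 0.21 and -1.61 ± 0.28. The median exon lengths of the collagen and laminin, Zfp and solute carrier genes were 7648, 4766 and 4515 bp. By library size alone the calls were 0 higher and 26 lower, 1 higher and 111 lower and 4 higher and 74 lower.

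**Figure D4:**
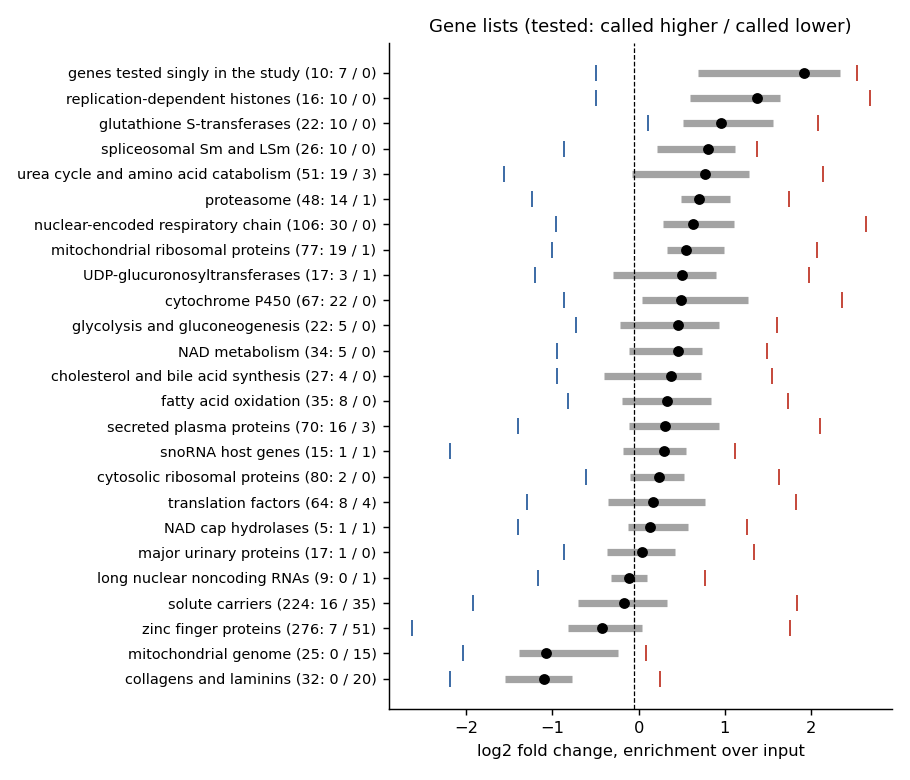
Log2 fold change of enrichment over input (x axis) for 25 gene lists, the lists of cell type markers left out, with the median, the quartiles and the range of the tested members of each. The label of a list gives the number tested and, after the colon, the numbers called higher and lower. The medians run from -1.10 for collagens and laminins to 1.92 for the genes tested singly in the study, against -0.05 for all genes.

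The transcripts of the mitochondrial genome, which encode respiratory chain subunits and the mitochondrial ribosomal and transfer RNAs, were mostly called lower or not called. Of 37 annotated genes 25 were tested, and 0 were called higher and 15 lower, with a median of -1.07. The 25 genes were short, with a median exon length of 348 bp. The summed level of the 25 was 34838 to 48158 cpm in the input and 6493 to 42774 cpm in the enrichment libraries. mt-Co1, which encodes cytochrome c oxidase subunit I, had 18601 to 27592 cpm (median 23085) in the input and 1394 to 19281 cpm (median 3330) in the enrichment libraries, a log2 fold change of -1.96 ± 0.36 (SE, adjusted p = 5.9e-05). mt-Cytb (cytochrome b) had 6048 to 8969 cpm (median 7432) in the input and 1367 to 7739 cpm (median 2252) in the enrichment libraries, a change of -1.28 ± 0.23 (SE, adjusted p = 3.0e-05). mt-Nd1 (complex I) had 3066 to 4882 cpm (median 3694) in the input and 667 to 4556 cpm (median 1178) in the enrichment libraries, a change of -1.32 ± 0.22 (SE, adjusted p = 1.8e-05). All 3 were below input in 12 of 12 pairs, and their highest enrichment library reached into the input range. mt-Nd4 changed by -1.06 ± 0.20, and mt-Nd5 had -0.71 ± 0.17, short of the limit. By contrast mt-Nd2 had 1851 to 2099.7 cpm (median 1994) in the input and 1263 to 2663 cpm (median 1713) in the enrichment libraries, a log2 fold change of -0.18 ± 0.10 (SE, adjusted p = 0.094). mt-Nd6, the one subunit encoded on the light strand, had 453 to 583 cpm (median 496) in the input and 367 to 710.4 cpm (median 470.0) in the enrichment libraries, a log2 fold change of -0.06 ± 0.10 (SE, adjusted p = 0.63), and it overlaps mt-Nd5 on the other strand. The rRNA genes mt-Rnr1 and mt-Rnr2 had -0.16 ± 0.28 (SE, adjusted p = 0.63) and -0.18 ± 0.30 (SE, adjusted p = 0.61), with 9 of 12 pairs below input. In the 1% and 10% mixtures alone these 2 rRNA genes had 0.74 and 0.50. mt-Co2, mt-Co3, mt-Atp6, mt-Atp8, mt-Nd3 and mt-Nd4l, at median inputs of 0.59 to 21.2 cpm, were called lower as well, with changes from -1.07 to -1.68. mt-Atp8, mt-Nd3 and mt-Nd4l held 2 to 13, 6 to 18 and 2 to 8 input counts, near the floor of 3, so their sizes are uncertain. mt-Co2 and mt-Co3 held 115 to 279 and 102 to 255 input counts, against 161976 to 256632 for mt-Co1. Whether reads shared with other loci lower these counts was not tested.

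Of a chosen list of long nuclear noncoding RNAs, 9 were tested, and 0 were called higher and 1 (11.1%) lower, with a median of -0.11. Malat1 and Neat1, abundant RNAs of nuclear speckles and paraspeckles, had 0.09 ± 0.18 and -0.11 ± 0.13, and 2900097C17Rik (Norad) had 0.03 ± 0.07. The sign of Malat1 turned in the 0% and 5% mixtures alone, at -0.36, and that of 2900097C17Rik in the 1% and 10% mixtures, at -0.28. Gm26917 was called lower at -1.17 ± 0.44, with enrichment libraries from 6.73 to 632 cpm around an input of 127 to 207 cpm, and had 0.47 in the 1% and 10% mixtures alone.

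Markers of the cell types of the liver were measured beside these groups. The summed level of 8 hepatocyte markers was 66928 to 78253 cpm in the input and 71852 to 90409 cpm in the enrichment libraries, and the label of liver tissue held. Endothelial markers went from 126 to 182 cpm in the input to 63.8 to 169 cpm, with 0 of 6 called and all 6 fold changes negative; without the 3 pairs of smallest spread 2 were called lower. Clec4g and Lyve1 were near 0 at -0.17 ± 0.11 and -0.06 ± 0.15, and positive in the 0% and 5% mixtures alone at 0.11 and 0.12. Kupffer cell markers, 217 to 551 cpm in the input and 239 to 739 cpm in enrichment, had 0 of 6 called. Stellate cell markers, 319.6 to 384 and 369 to 671 cpm, had Dcn (decorin) called higher at 1.22 ± 0.11 and Reln lower. Lymphocyte markers, 7.40 to 10.4 and 9.72 to 21.1 cpm, had Cd3e, Nkg7 and Cd79b called higher, 3 of 8, at 1.56, 1.44 and 1.30. That input level is the sum of 8 genes and not far above the floor of 3 counts per gene, so these values are less certain. In the aged livers described below, 1 of the 8 was called higher and 1 lower. Cholangiocyte markers, 31.7 to 64.0 and 41.4 to 111 cpm, had Krt7 called higher at 1.26, 1 of 5. Of erythroid markers, 172 to 383 and 195 to 538 cpm, 3 of 5 tested were called higher, the globin genes Hba-a2, Hba-a1 and Hbb-bt at 1.64, 1.03 and 1.05. Input and enrichment of a pair came from 1 RNA preparation, so these are differences between transcripts of a type and not in the number of its cells, and the part of cell type in any list above was not tested.

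Among called genes with at least 50 counts on average, the steadiest changed by little more than 2-fold. That size lies near the limit of a call and is not read as a trait of steady genes. Rps15a-ps7, a pseudogene of a ribosomal protein gene, had the smallest SD of the log2 ratio over the 12 pairs, 0.23, with a log2 fold change of 1.09 ± 0.10. The lincRNA 1810008I18Rik, Cwc25 (a splicing factor), Cks2 (a partner of cyclin-dependent kinases) and Hes1 (a Notch target and repressor) followed with SDs of 0.24, 0.25, 0.27 and 0.27 and changes of 1.02 ± 0.09, 1.09 ± 0.11, 1.12 ± 0.10 and 1.15 ± 0.15. Hes1 had 8.57 to 19.5 cpm (median 12) in the input and 18.7 to 48.6 cpm (median 27.5) in the enrichment libraries. The least steady, with at least 50 counts on average, were Fasl (the ligand of the death receptor Fas), Rn7sk (the 7SK RNA), Emp2 (a membrane protein of the tetraspan family), Gm23935 and Lars2 (mitochondrial leucyl-tRNA synthetase), the last 4 with SDs of 3.12, 2.92, 2.66 and 2.63. The log2 ratios of these 4, with the prior count of 2, ran over -3.21 to 7.35, -1.11 to 5.74, -2.77 to 5.42 and -1.59 to 5.78. No ratio is given for Fasl, which had 0 to 4 counts in some enrichment libraries and whose counts are given below. Gm23935 and Lars2 are among the loci left out together with the rRNA gene CT010467.1 in a fit described below.

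Within single mixtures the counts of calls differed, and they changed with the pair left out. At 0% NAD-RNA spike-in 1415 genes were called higher (9.53%) and 1494 lower (10.1%), at 1% 1062 (7.15%) and 632 (4.26%), at 5% 1882 (12.7%) and 2405 (16.2%), and at 10% 1243 (8.37%) and 929 (6.26%). With replicate 1 left out of the 0% mixture the counts were 1881 and 2552, with replicate 3 left out of the 1% mixture 1647 and 2406, and with replicate 2 left out of the 10% mixture 1417 and 1099. Leaving out another replicate of these mixtures lowered the genes called lower to 138 and 93 at 0%, 21 and 9 at 1%, and 117 and 68 at 10%, for 0% replicates 2 and 3, 1% replicates 1 and 2, and 10% replicates 1 and 3. No gene was called higher in a mixture and lower in another, and 729 of the 1687 genes were called higher in each of the 4 mixtures. Of the 1992, 255 were called lower in each. With the pairs as a block, 1078 genes were called lower at 1%, in place of 632. The mean log2 ratios of the mixtures correlated with each other across genes at 0.80 to 0.88.

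A test of the difference in enrichment between the 4 mixtures passed for 3 genes (0.0202% of those tested), Emp2, Fzr1 and Gm22513, and a test between the sets, 0% and 5% against 1% and 10%, for 9 (0.0606%), or for 3 (Emp2, Fzr1 and Gm22513) with the pairs as a block and for 51 by DESeq2. With 1 pair left out the second test passed for 3 to 52 genes, the most without 0% replicate 1. Emp2 held 731 to 3496 counts in the 6 enrichment libraries of 0% and 5%, 8 to 38 in those of 1% and 10%, and 48 to 83 and 48 to 79 in the inputs of the 2 sets. Its log2 fold changes at 0%, 1%, 5% and 10% were 5.32, -0.26, 5.27 and -0.36, so the set difference was 5.61 ± 0.44 (adjusted p = 1.0e-07). Fzr1, an activator of the anaphase-promoting complex, held 717 to 2985 counts in those 6 enrichment libraries, 50 to 151 in the other 6 and 77 to 184 in the inputs, a difference of 3.46 ± 0.35 (adjusted p = 4.5e-06). Fasl held 738 to 3363 counts in the 6 enrichment libraries of 0% and 5%, 0 to 4 in the other 6 and 0 to 14 in the inputs. It did not pass the test, and with the inputs of 1% and 10% at the floor of 3 counts or little above it no fold is given. These 3 genes lie on different chromosomes (1, 16 and 10), and they alone among the genes tested were those whose lowest 0% or 5% enrichment library was at least 2-fold above each other library. Fzr1 counts were 0.79 to 0.98 and Fasl counts 0.86 to 1.01 of the Emp2 counts in the same enrichment library. Selenof, a selenoprotein of the endoplasmic reticulum, and Ecd, a regulator of splicing and the cell cycle, were higher at 0% and 5% by 1.14 ± 0.21 and 0.98 ± 0.18, and the difference for Chd1, a chromatin remodeller, was -1.52 ± 0.25. These 3 did not pass with the pairs as a block.

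Ribosomal RNA and some other loci had the opposite direction. CT010467.1 held 6017 to 59113 counts in the enrichment libraries of 0% and 5% and 30858 to 517873 in those of 1% and 10%, against 15876 to 34334 in all inputs, and its set difference was -4.58 ± 0.81 (adjusted p = 0.020). For Lars2, Mir6236 and Gm22513, of which Gm22513 alone passed with the pairs as a block, it was -4.57 ± 0.74, -4.62 ± 0.79 and -5.03 ± 0.47. In the 0% and 5% mixtures alone CT010467.1 had a log2 fold change of -0.49. Within sets the pairs also differed, since 0% replicate 1 held 59113 counts of CT010467.1 against 6433 and 7769 in the other 0% replicates. Gm22513 did not follow CT010467.1 there, with 14 counts in 0% replicate 1. In the 10% enrichment replicates 1, 2 and 3 it held 190, 417 and 527 counts, where CT010467.1 held 241432, 265810 and 38015. CT010467.1 and 7 further loci were left out of the fit, a choice made after seeing the data. The 7 were Lars2, Gm15564, Mir6236, Gm22513, Gm23935, Gm24187 and Gm24270, grouped with CT010467.1 as rRNA-like loci. Whether their reads came from the annotated genes was not tested, so their values are not read as changes of those genes. Without CT010467.1 and the 7 further loci 1681 genes were called higher and 1991 lower over all mixtures, and 3 genes passed the test between sets.

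**Figure D5:**
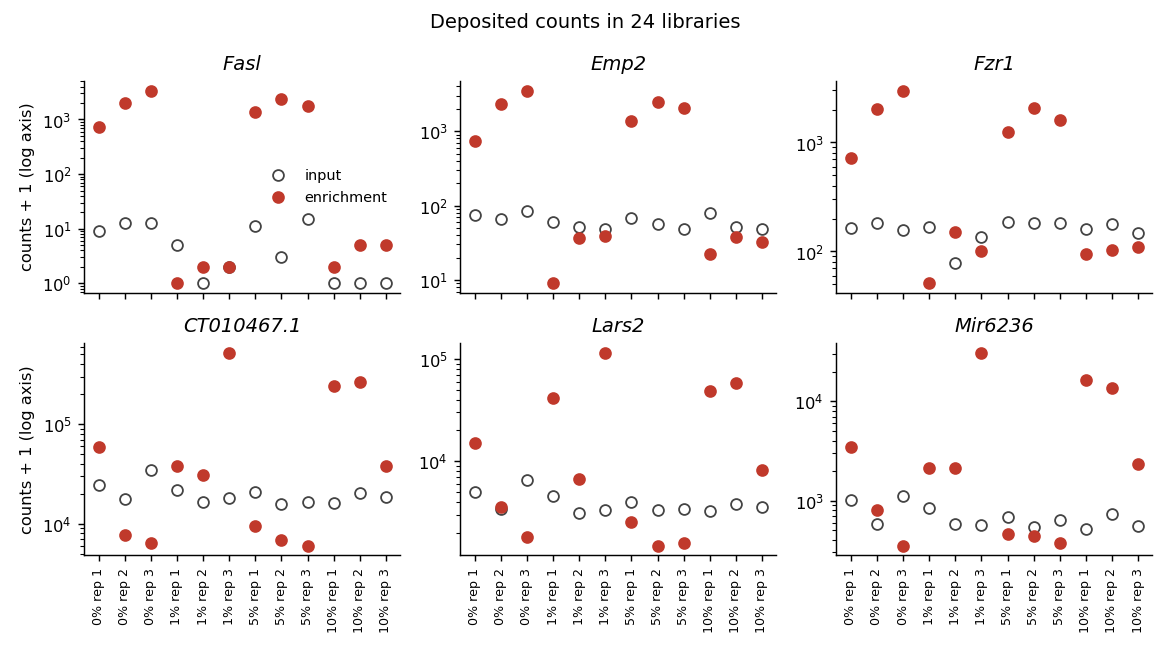
Deposited counts plus 1 (y axis, log scale) of 6 genes in the 12 input (open circles) and 12 enrichment (filled circles) libraries, ordered by mixture and replicate. Fasl, Emp2 and Fzr1 reach 717 to 3496 counts in the 6 enrichment libraries of the 0% and 5% mixtures, and CT010467.1, Lars2 and Mir6236 are highest in libraries of the 1% and 10% mixtures.

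The same age and strain of liver was enriched in another experiment of the series, with 4 input and 4 enrichment libraries of aged (18-month) livers and no spike-in, normalized and fitted on its own. There 1805 genes were called higher (11.5%) and 2243 lower (14.3%). Among 14542 genes tested in both, 1195 were called higher in both, 72.6% of the 1645 of the spike-in libraries and 69.0% of the 1732 of the aged livers. In the other direction 1554 were shared, 78.9% of 1969 and 70.8% of 2196. The log2 fold changes of the 2 experiments, which share no library, correlated at r = 0.87 and rho = 0.89 across genes, and the rho of change with exon length was -0.54 and -0.46. Only 8 genes were called in opposite directions, all higher in the spike-in libraries, namely CT010467.1, Lars2, Mir6236, Gm15564, Gm23935, Gm24187, Gm24270 and Rn7sk. CT010467.1 had 1.80 here and -3.01 there, and Gm15564 3.96 and -1.10. For 4 of the genes described above, picked with their values seen, the values here and there were 2.89 and 2.76 for Sertad1, 2.54 and 2.56 for Akr1c13, 2.05 and 2.13 for Mgst1, and -1.84 and -2.41 for Htt.

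A direct test of the difference in enrichment between the experiments passed for 63 genes (0.433%). At least 2-fold in size, 30 of them (0.206%) had the more positive change in the spike-in libraries and 1, F13b, the less positive (0.00688%). Mitochondrial genes were among the 30, with differences of 1.90 for mt-Co2, 1.72 for mt-Nd1, 1.4998 for mt-Cytb, 1.44 for mt-Nd2 and 1.17 for mt-Nd6. In the aged livers 0 of 27 mitochondrial genes were called higher and 23 lower, with a median log2 fold change of -2.51. mt-Nd2 and mt-Nd6, not called in the spike-in libraries, had -1.65 and -1.25 there. Emp2 and Fzr1 differed by 3.21 and 1.86, having -0.73 and 0.04 in the aged livers. The experiment, its handling and its livers cannot be told apart in this test. The ribosomal protein genes Rpl11 and Rpl39 differed by 1.03 and 1.10. F13b, the coagulation factor XIII B chain, had 0.75 here and 1.77 in the aged livers, a difference of -1.04 ± 0.22 (adjusted p = 0.022).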

How the data were processed

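Endogenous genes were analysed in the 24 libraries of the spike-in experiment, grouped by the labels. Per the study's methods, the authors used Trim Galore, STAR and featureCounts on GRCm38. What the authors deposited are raw gene counts. Symbols, positions and exon lengths were taken from GENCODE M21 of that build, an earlier release than the one used for counting.

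Genes with a zero count in over 25% of libraries were removed. edgeR 4.0.16 (R 4.3.3, TMM, quasi-likelihood, two-sided) was fitted to 8 groups, mixture by library type, with enrichment over input averaged over the 4 mixtures and p-values Benjamini-Hochberg adjusted over 14849 genes. SE is the log2 fold change over the root of F. Differences between mixtures, sets or experiments were interaction terms, the last in a joint fit with the aged livers. Ratios per pair used a prior count of 2. Input and enrichment of a number share the biotinylated RNA, and their deviations from group means had correlations over genes of 0.05 to 0.23, against -0.13 to -0.03 for other numbers.

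Members and lists were chosen with earlier results of these data known. Named were the 12 largest and 12 smallest changes (mean of at least 50 counts, 1 direction in 12 pairs), mitochondrial genes, 2 extremes at each end of 32 lists, genes the study assayed singly, the 5 steadiest and 5 least steady, and up to 5 a direction that differed between sets. Alternatives were DESeq2 1.42.0, other scalings and filters, a replicate block, summed counts, a 2-fold null and left-out libraries. Leaving out 3 pairs together, or CT010467.1 with 7 loci, was chosen after seeing the data. The fit was tested on simulated data. Of the deposited columns, 4 matched no sample and were not used.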

Additional observations from a re-analysis of the deposited data

Results flagged for a closer look

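For 9 genes the enrichment over input differed between the mixtures of 0% and 5% and those of 1% and 10% NAD-RNA, by an interaction test in edgeR. The log2 difference, 0% and 5% minus 1% and 10%, was 5.61 for Emp2, 3.46 for Fzr1, 1.14 for Selenof and 0.98 for Ecd. It was -1.52 for Chd1, -4.57 for Lars2, -4.58 for CT010467.1, -4.62 for Mir6236 and -5.03 for Gm22513. Emp2 and Fzr1 rose in all 6 enrichment libraries of the first 2 mixtures and Gm22513 had higher counts in all 6 enrichment libraries of the other 2. CT010467.1, Lars2 and Mir6236 also varied within mixtures, with the highest count of each in 1% replicate 3. With the pairs as a block the difference passed for Emp2, Fzr1 and Gm22513 and not for the other 6. Emp2 and Fzr1 passed under each of 21 alternatives, Gm22513 under each of the 20 that kept it, Chd1 under 18 of 21, Lars2 under 15 of 20, CT010467.1 and Mir6236 under 12 of 20, and Ecd and Selenof under 8 of 21. What sets the sets of mixtures apart was not tested.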

How the results depend on the processing

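No gene called here was called in the opposite direction under any alternative. Over all mixtures (1687 higher, 1992 lower), DESeq2 gave 1770 and 1956, the replicate block 1582 and 2185, counts summed within sets 1745 and 1835, library size alone 564 and 4235, a 2-fold null 620 and 184, and the 1% and 10% mixtures alone 1356 and 1218. Leaving out 1 pair gave 1542 to 1849 higher and 1731 to 2479 lower. Within mixtures, library size alone gave 585 and 2991 at 0%, 284 and 2675 at 1%, 747 and 4157 at 5%, and 412 and 3232 at 10%. Without the 3 pairs of smallest spread 2599 genes were called lower at 0%, 1660 higher and 2488 lower at 1%, and 1773 lower at 10%, and the replicate block gave 1078 lower at 1%. Leaving out 1 replicate gave 828 to 1881 higher and 93 to 2552 lower at 0%, 352 to 1647 and 9 to 2406 at 1%, 1512 to 1859 and 1649 to 2216 at 5%, and 748 to 1417 and 68 to 1099 at 10%.

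The 3 genes differing between mixtures were 27 by DESeq2, 57 with no filter, 13 without the 3 pairs and 3 to 11 with 1 pair left out (11 without 0% replicate 1). The 9 differing between sets were 51 by DESeq2, 24 by library size, 70 with no filter and 48 without the 3 pairs. They were 3 with the replicate block, 3 without CT010467.1 and the 7 further loci, and 3 to 52 with 1 pair left out (52 without 0% replicate 1). The 63 differing from the aged livers were 128 by library size and 180 by DESeq2. Same-sign genes called higher were 743 in place of 1197 by library size. With level per kilobase, the lowest of 10 groups had 8.96% higher and 13.1% lower (19.3% and 3.50% per gene), and the highest 25.1% and 3.03% (20.1% and 6.06%).

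Of 173 named genes under 26 settings, 27 of 4472 values changed sign, in 20 genes. In the 1% and 10% mixtures alone the log2 fold changes were 0.74 for mt-Rnr1, 0.50 for mt-Rnr2, 0.47 for Gm26917, -0.28 for 2900097C17Rik, -0.042 for Fgb, -0.32 for Emp2 and 0.20 for Chd1. In the 0% and 5% mixtures alone they were 0.011 for mt-Nd6, -0.36 for Malat1, 0.11 for Clec4g, 0.12 for Lyve1, -0.052 for Lars2, -0.90 for Gm23935 and -0.49 for CT010467.1. By library size they were -0.34 for Gstp3, -0.21 for Gstp1, -0.33 for Nudt16, -0.43 for 2900097C17Rik, -0.35 for Malat1, -0.20 for Fgb, -0.18 for Ttr and -0.034 for Atp5k. Without the 3 pairs they were 0.00051 for Snhg17, -0.10 for Malat1 and -0.10 for Gm23935, and with counts summed over all mixtures 0.077 for Lyve1. With 1 pair left out Malat1 ran from -0.082 (without 1% replicate 3) to 0.18. The causes were not tested. Genes with few counts had the wider spread over pairs, and 3 counts were the floor.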
